A study of Mus musculus with 9 samples.

Results

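The heat shock chaperones described here are 10 mouse genes, Hspa1a, Hspa1b, Hspa8, Hsp90aa1, Hspd1, Hspe1, Dnajb1, Hsph1, Hspb1 and Hsf1. They were chosen by their symbols among the 48526 genes counted, with earlier results of these data known. All 10 were detected in each of the 9 libraries and passed the filter on low counts, as did 18858 genes in all. The RNA-seq libraries came from neural stem cells (NSCs) of the subependymal zone of adult wild-type C57BL/6 mice (C57BL/6J in the study's methods, 2 to 4 months old), expanded as neurospheres. The groups were undifferentiated NSCs (0 h) and NSCs taken after 1 h and 6 h of differentiation, which was started by culture on an adhesive substrate without EGF, their mitogen, with FGF still present. Each time point had 3 libraries, lettered B, C and D in the labels and numbered here as replicates 1 to 3 (the labels do not say whether these are separate mice or cultures, so p-values measure the spread between these libraries), and the labels name no heat treatment. For cells fixed early in differentiation, the study's methods describe a prior seeding in medium with EGF, and whether the RNA libraries had this step is not given in the sources used here. No culture on the substrate with EGF was labelled as such among the samples.

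Molecular chaperones bind unfolded proteins, keep them from aggregating and help them to fold. HSF1, the transcription factor of the heat shock response, is held back by chaperones in unstressed cells and, once released, binds heat shock elements, repeats of the letters GAA in alternating orientation, in the promoters of chaperone genes. Members of the family differ in how much of their expression depends on stress: HSC70 (Hspa8) serves folding in all cells, while the HSP70 genes Hspa1a and Hspa1b are known for low levels in unstressed cells and strong induction by heat.

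The total count per library lay between 65871454 and 105592597. Levels are given as CPM, counts per 1000000 counts of the library after scaling with the TMM factors of edgeR, which lay between 0.972 and 1.02. The 6 NSC marker genes summed to between 5868 and 7577 CPM at 0 h, between 5533 and 7829 at 1 h and between 4695 and 6531 at 6 h. The 6 neuronal markers summed to between 38.5 and 83.8 CPM, between 44.3 and 87.0 and between 71.5 and 142 at the same times, and the 6 microglial markers to at most 0.529 CPM (Itgam was at 0). Same-numbered libraries strayed from their group means in the same direction (correlations of 0.733 to 0.800 in 9 pairs). A second fit took this number as a block, and for a named gene called in only 1 of the fits the adjusted p of both is given. SE stands for standard error.

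In GRCm38 the inducible HSP70 genes both lie on the minus strand of chromosome 17, Hspa1a (ENSMUSG00000091971) at 34969190 to 34972156 and Hspa1b (ENSMUSG00000090877) at 34956436 to 34959238. Hspd1 (ENSMUSG00000025980) lies at 55077835 to 55088243 on the minus strand of chromosome 1, with Hspe1 (ENSMUSG00000073676) at 55088132 to 55091307 on the plus strand. Hsph1 (ENSMUSG00000029657, 149614287 to 149636376, minus strand) and Hspb1 (ENSMUSG00000004951, 135887919 to 135889563, plus strand) are both on chromosome 5. The others are Hspa8 (ENSMUSG00000015656) on chromosome 9, 40800984 to 40810087, Dnajb1 (ENSMUSG00000005483) on chromosome 8, 83608193 to 83612653, and Hsf1 (ENSMUSG00000022556) on chromosome 15, 76477422 to 76501913, all on the plus strand. Hsp90aa1 (ENSMUSG00000021270) is on the minus strand of chromosome 12, 110690605 to 110702728. All 10 are protein-coding.

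Exact matches to the heat shock element were unevenly spread over the promoters of the members. RefSeq promoter windows of assembly GRCm38.p6, which run from 250 bases before a transcription start to 50 bases after it, were found for 7 of the 10 members (10 windows, since some genes have several starts) and not for Hspa8, Hsp90aa1 and Hsf1. Elements were searched on both strands as 2 adjoining units (GAANNTTC or TTCNNGAA, N being any base) and as 3 adjoining units (GAANNTTCNNGAA or TTCNNGAANNTTC), and a match of 3 units also holds matches of 2 units. Matches of 2 units are common, with 15.1% of 32851 promoter windows, and matches of 3 units rare, with 0.603% or 198 windows. The windows below are those of the members that carry the longest runs, followed by the stress-inducible Hspa1a and Hspb1. Capitals mark the matched units.
Hspe1, chr1:55087898-55088197, plus strand: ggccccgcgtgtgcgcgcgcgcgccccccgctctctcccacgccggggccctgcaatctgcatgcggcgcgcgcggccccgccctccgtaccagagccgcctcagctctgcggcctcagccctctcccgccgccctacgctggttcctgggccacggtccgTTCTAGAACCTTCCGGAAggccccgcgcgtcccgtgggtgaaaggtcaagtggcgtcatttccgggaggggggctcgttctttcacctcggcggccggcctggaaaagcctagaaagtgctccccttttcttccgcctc
Hsph1, chr5:149636266-149636565, minus strand: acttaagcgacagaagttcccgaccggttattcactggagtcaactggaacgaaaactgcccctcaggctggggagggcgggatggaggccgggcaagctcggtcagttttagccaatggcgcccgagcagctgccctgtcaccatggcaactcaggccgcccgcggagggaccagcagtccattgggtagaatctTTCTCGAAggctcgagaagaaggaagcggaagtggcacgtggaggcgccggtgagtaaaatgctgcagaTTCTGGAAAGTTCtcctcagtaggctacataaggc
Hspa1a, chr17:34972107-34972406, minus strand: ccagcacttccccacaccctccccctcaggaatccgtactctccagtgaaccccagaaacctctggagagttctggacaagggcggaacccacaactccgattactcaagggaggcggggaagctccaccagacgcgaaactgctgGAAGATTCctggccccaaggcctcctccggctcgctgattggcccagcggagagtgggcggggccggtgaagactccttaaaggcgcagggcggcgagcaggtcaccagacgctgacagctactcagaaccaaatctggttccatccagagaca
Hspb1, chr5:135887669-135887968, plus strand: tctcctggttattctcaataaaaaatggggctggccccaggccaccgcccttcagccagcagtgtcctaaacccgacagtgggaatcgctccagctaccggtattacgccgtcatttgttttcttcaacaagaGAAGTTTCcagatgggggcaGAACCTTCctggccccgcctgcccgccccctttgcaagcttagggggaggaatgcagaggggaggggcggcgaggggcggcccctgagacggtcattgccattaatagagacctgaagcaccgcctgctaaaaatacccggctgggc

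Hspe1 and Hspd1 encode HSP10 and HSP60, the lid and the barrel of the mitochondrial chaperonin, and are transcribed away from each other from a shared region on chromosome 1. The run of adjoining units in the window of Hspe1 begins 89 bases before its start and is the same run that lies in the window of Hspd1 on the other strand, where it begins 144 bases before the start. It contains 3 overlapping matches of 2 units and 2 of 3 units in each of these windows. The other annotated start of Hspd1 had no match in its window, 55088194 to 55088493. That window holds the outer end of the gene at 55088243, so the run lies inside the annotated gene. Hsph1, which encodes HSP105, a nucleotide exchange factor of HSP70, had 1 match of 3 units, 15 bases after the start shown, and 1 separate match of 2 units 54 bases before it. Hspa1a and Hspa1b had 1 match of 2 units each, 104 bases before the start, and their windows differed at 4 of 300 bases. Hspb1, which encodes the small heat shock protein HSP25, had 2 separate matches of 2 units, 117 and 97 bases before its start. Neither window of Dnajb1, the HSP40 co-chaperone that hands substrates to HSP70, held a match. These matches describe the letters in the windows, and binding was not measured. Only exact units were counted, so a run that holds a unit with a mismatched letter is scored as shorter or missed. The number of matches is therefore no measure of the strength of an element.

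Divided by exon length, the levels of the members at 0 h spanned more than 3 orders of magnitude. Hspa8 was highest with 485 ± 11.2 CPM per kb (SD, n = 3) and had rank 38 among the 18785 tested genes with a known length. Hspd1 followed with 333 ± 83.9, Hsp90aa1, the inducible cytosolic HSP90, with 273 ± 14.2 and Hspe1 with 122 ± 29.6 CPM per kb (SD, n = 3 each). The libraries of Hspd1 and Hsp90aa1 overlapped on this scale, so their order is not set at this spread, whereas each of the other neighbours down to Hspa1a was separated. Hsph1 had 25.5 ± 3.39, Dnajb1 15.3 ± 0.161 and Hsf1 5.42 ± 0.582 CPM per kb (SD, n = 3 each). Hspa1b was at 0.464 ± 0.290, Hspa1a at 0.154 ± 0.0514 and Hspb1 at 0.154 ± 0.0520 CPM per kb (SD, n = 3 each). The last pair overlapped and changed places at 1 h and 6 h, and otherwise the order was the same at all 3 time points. Only 12.5% of the tested genes had a lower level than Hspa1a or Hspb1, which had 22 to 106 and 8 to 26 raw counts per library. The 10 genes together took 0.393% to 0.484% of the counts of a library.

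**Figure D1:**
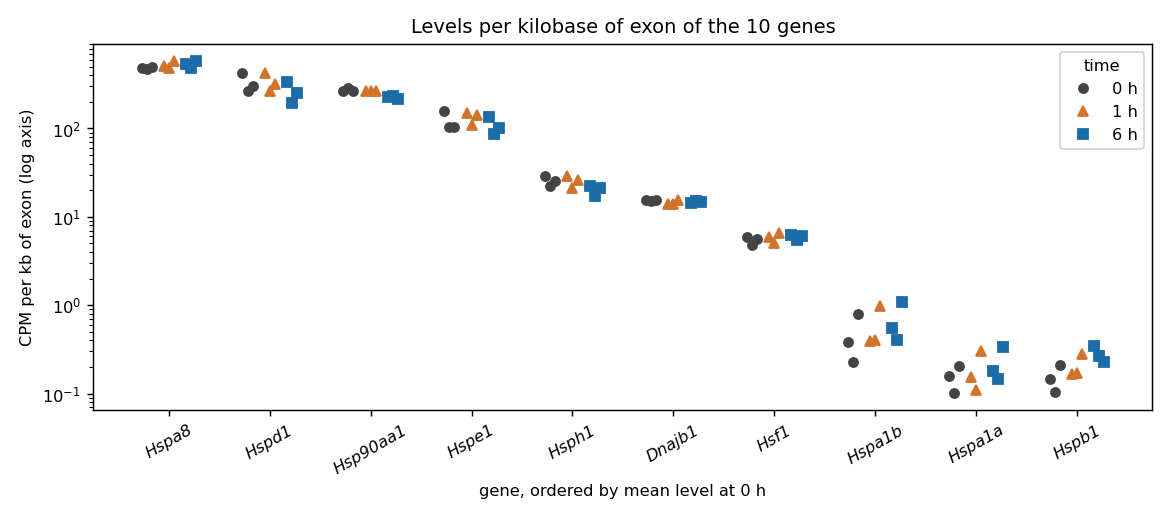
Level of each of the 10 genes in CPM per kb of exon on a log axis, with genes ordered by their mean at 0 h and 1 point per library (3 for each time). Hspa8, Hspd1, Hsp90aa1 and Hspe1 lie above 80 CPM per kb in all 9 libraries, whereas Hspa1a and Hspb1 lie below 1 CPM per kb.

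The first question was whether the heat shock chaperones responded within 1 h of the differentiation signal. At 1 h against 0 h none of the 10 members was called by the quasi-likelihood test of edgeR (Benjamini-Hochberg adjusted p under 0.05), with or without the block. DESeq2 also called 0 members in either form. It gave no adjusted p for Hspb1 in either form, nor for Hspa1a and Hspa1b with the block. These could not be called there. Unadjusted p-values under 0.05 were found for 0 members without the block and for 1 member with it (Hspa1b). The share of all tested genes under this unadjusted value is not given here or below. Such counts are therefore read as no result about the members. Over all tested genes, 0.0424% were called higher and 0% lower without the block, and 1.36% higher and 2.14% lower with it. The libraries of 0 h and 1 h overlapped for all 10 members, where 3.3% of all tested genes lay wholly higher and 4.93% wholly lower at 1 h. The median log2 fold change of the members was 0.11, with 7 positive and 3 negative, beside 0.0012 over all tested genes. Dnajb1 and Hsf1 illustrate the size of the differences at this time. Mean Dnajb1 was 48.9 ± 0.516 CPM before and 46.1 ± 3.27 CPM after (SD, n = 3 each), or -0.08 on the log2 scale (SE 0.07). Mean Hsf1 was 38.5 ± 4.13 CPM before and 41.5 ± 5.47 CPM after (SD, n = 3 each), or 0.11 on the log2 scale (SE 0.12).

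The second question was whether the chaperones had changed by 6 h, when the cells had been without EGF for longer. Hspd1, Hsph1 and Hsp90aa1 were lower at 6 h than at 0 h in 3 of 3 replicates, by 22%, 21.2% and 17.5%. Hspa1b was higher in 3 of 3 replicates, 1.5-fold. All 4 of these calls rest on the fit with the replicate block, and without the block 0 members were called. The block fit called 1 of 10 members higher and 3 lower, whereas it called 17.4% of all tested genes higher and 17.5% lower. With so few members, these counts are read as no result about the members as a set. Without the block, 1.46% of all tested genes were called higher and 0.955% lower, and DESeq2 called 1 member (Hsp90aa1, lower). Unadjusted p-values under 0.05 were found for 3 members without the block and for 9 with it. These counts too have no share of all tested genes beside them and are read as no result about the members. The absolute log2 fold change had a median of 0.31 over the members and of 0.20 over all tested genes with the block, and the signed median was 0.04 over the members, with 5 positive and 5 negative. Less RNA of a gene at 6 h can mean less of it in each cell or fewer of the cells that express it, and bulk libraries cannot tell these apart. With the block, 3 of the 5 tested neuronal markers rose at 6 h, 1 NSC marker rose and 2 NSC markers fell. The part of these shifts in the members' changes was not tested. Of 5 endothelial markers 3 were tested and 2 fell with the block (summed level 2.74 to 16.1 CPM at 0 h and 2.04 to 8.38 CPM at 6 h). Of 5 ependymal markers 3 were tested and 2 fell (47.1 to 86.1 CPM at 0 h and 38.4 to 60.2 CPM at 6 h). In the same fit 1 microglial marker and 1 mural and fibroblast marker fell, while 1 oligodendrocyte marker rose and 1 fell. Among the red blood cell markers, 4 of 5 were at 0 throughout.

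The barrel of the mitochondrial chaperonin fell within each replicate. Hspd1 had 1130, 707 and 804 CPM in replicates 1, 2 and 3 at 0 h, 1108, 697 and 838 CPM at 1 h, and 890, 519 and 661 CPM at 6 h. Replicate 1 was the highest and replicate 2 the lowest at each time, and the range at 6 h overlapped those at 0 h and 1 h. Within replicates Hspd1 changed by -0.34, -0.45 and -0.28 on the log2 scale from 0 h to 6 h. Its log2 fold change was -0.35 (SE 0.26, edgeR adjusted p = 0.555) without the block and -0.36 (SE 0.05, edgeR adjusted p = 0.00013) with it. The call with the block held whichever replicate number was removed (adjusted p no higher than 0.0115). Without the block the value ran from -0.58 (without 6 h replicate 1) to -0.13 (without 0 h replicate 1) when 1 library was removed. Reads of Hspd1 may in part be assigned to a copy: 26.9% of the windows of 100 bases in its longest transcript also occurred in other genes, most of them in the processed pseudogene Hspd1-ps3. Hspd1-ps3 itself had 56.4 CPM at 0 h and 44.2 CPM at 6 h, and the block fit gave -0.34 (edgeR adjusted p = 0.00161, and 0.365 without the block), a call lost without replicate 2 (adjusted p = 0.0577).

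Hspe1, the partner of Hspd1 across the shared promoter, was measured at 230, 154 and 155 CPM at 0 h, 218, 160 and 208 CPM at 1 h, and 197, 129 and 150 CPM at 6 h. Every replicate was lower at 6 h than at 0 h, and at 1 h replicate 3 stood furthest above its own level at 0 h. Its log2 fold change at 6 h against 0 h was -0.18 (SE 0.07, edgeR adjusted p = 0.0816 with the block), so it was not called there. Without replicate 3 the same fit gave -0.23 (edgeR adjusted p = 0.00239). The ratio of Hspd1 to Hspe1 counts lay between 4.59 and 5.19 at 0 h, between 4.04 and 5.08 at 1 h and between 4.02 and 4.52 at 6 h. The first exons of the genes share 112 bases on opposite strands, and how reads there were assigned is not given in the sources used here.

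Hsph1 was present at 211, 162 and 184 CPM at 0 h, 208, 155 and 192 CPM at 1 h, and 161, 124 and 154 CPM at 6 h. The 6 h libraries lay just below all 0 h libraries, with the highest of them (161 CPM) next to the lowest at 0 h (162 CPM), while at 1 h replicate 2 fell within the 6 h range. The log2 fold change at 6 h against 0 h was -0.34 (SE 0.15, edgeR adjusted p = 0.272) without the block and -0.34 (SE 0.05, edgeR adjusted p = 0.00012) with it. The latter call held whichever replicate number was removed (adjusted p of at most 0.0106). No other gene shared windows of 100 bases with Hsph1.

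Hsp90aa1 had 1036, 1138 and 1047 CPM at 0 h, 1038, 1051 and 1043 CPM at 1 h, and 894, 908 and 855 CPM at 6 h. It was the member with the tightest replicates among those that fell, and no 6 h library reached any library of 0 h or 1 h. The log2 fold change at 6 h against 0 h was -0.28 (SE 0.07, edgeR adjusted p = 0.0761) without the block and -0.28 (SE 0.05, edgeR adjusted p = 0.00074) with it. DESeq2 called it in both forms, with an adjusted p of 0.00041 without the block. In 47.5% of its windows Hsp90aa1 could not be told from another gene, mainly the processed pseudogenes Gm12346 and Gm5844, which had 6326 and 3995 counts in the 9 libraries beside 65853 to 95976 counts of Hsp90aa1 in each library.

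**Figure D2:**
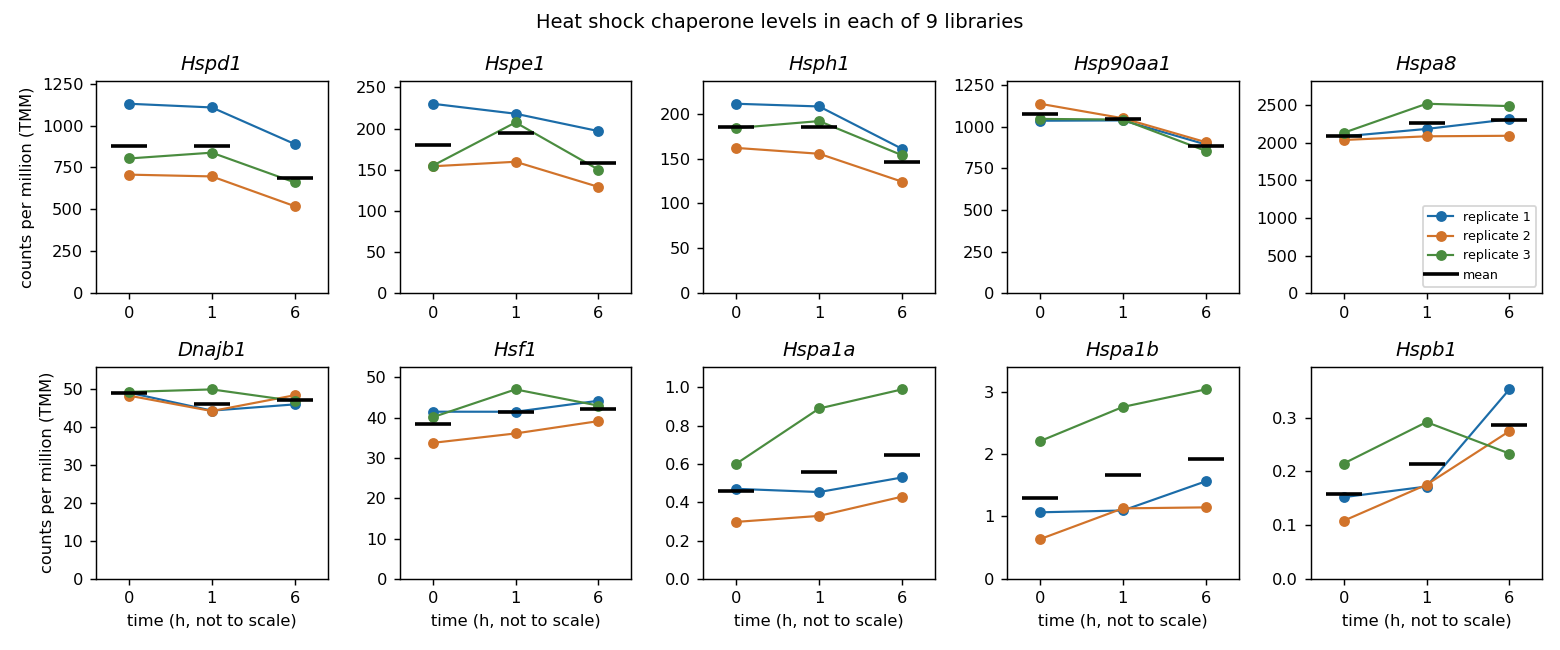
CPM of each of the 10 genes over time, with axes from 0, 1 coloured line per replicate number joining its 3 libraries and black bars for the means. Hspd1, Hspe1, Hsph1 and Hsp90aa1 are lower at 6 h than at 0 h in every replicate, whereas Hspa1a and Hspa1b are higher at 6 h in every replicate with replicate 3 highest throughout.

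The inducible HSP70 genes went the other way from a low level. Hspa1b had 1.07, 0.635 and 2.21 CPM at 0 h, 1.09, 1.13 and 2.75 CPM at 1 h, and 1.56, 1.14 and 3.03 CPM at 6 h. Replicate 3 was the highest at each time, and the 3 time points overlapped. The log2 fold change at 6 h against 0 h was 0.56 (SE 0.57, edgeR adjusted p = 0.703) without the block and 0.58 (SE 0.16, edgeR adjusted p = 0.0126) with it, and the latter call was lost without replicate 2 (log2 fold change 0.51, edgeR adjusted p = 0.0642). Without the block the value ran from 0.0546 (without 6 h replicate 3) to 1.17 (without 0 h replicate 3) when 1 library was removed. Hspa1a had 0.470, 0.297 and 0.602 CPM at 0 h, 0.453, 0.329 and 0.890 CPM at 1 h, and 0.529, 0.429 and 0.990 CPM at 6 h. It was also higher at 6 h than at 0 h in 3 of 3 replicates, but was not called (log2 fold change 0.49, SE 0.22, edgeR adjusted p = 0.109 with the block), and its value without the block ran from 0.0694 to 0.76 when 1 of the same libraries was removed.

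Both genes encode nearly the same protein, and 49.9% of the windows of Hspa1b also occurred in Hspa1a, so the split of reads between them is uncertain. Reads that match both may also have been left out, and then their sum would be too low. Summed into 1 row they had 1.54, 0.933 and 2.81 CPM at 0 h, 1.55, 1.46 and 3.64 CPM at 1 h, and 2.09, 1.57 and 4.02 CPM at 6 h. The sum was higher at 6 h than at 0 h in each replicate, with overlapping groups. With the block its log2 fold change was 0.56 (SE 0.14, edgeR adjusted p = 0.0065), and without it 0.55 (SE 0.54, edgeR adjusted p = 0.687). The raw sum was 69 to 196 counts per library at 0 h and 143 to 431 at 6 h.

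Hspb1 was the other member with a level under 1 CPM. Its raw counts were 11, 8 and 15 at 0 h, 11, 16 and 21 at 1 h, and 26, 25 and 25 at 6 h, or 0.152, 0.108 and 0.215 CPM, 0.172, 0.175 and 0.292 CPM, and 0.353, 0.275 and 0.233 CPM. All 6 h libraries were above all 0 h libraries, replicate 3 by the smallest margin. In its longest transcript 42.7% of the windows also occurred in the pseudogene Hsp25-ps1, which had 2 counts in the 9 libraries. Neither fit called the difference (log2 fold change 0.85 with a SE of 0.36, edgeR adjusted p = 0.0878 with the block), and without replicate 3 the block fit gave 1.27 (edgeR adjusted p = 0.0412). Together with Hsph1 and Hsp90aa1, which lay lower, Hspb1 was 1 of 3 members whose 0 h and 6 h libraries did not overlap, where 12.8% of all tested genes lay wholly higher and 12.1% wholly lower at 6 h.

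The remaining members were not called at 6 h against 0 h. Hspa8 ranged from 2038 to 2134 CPM at 0 h, from 2087 to 2520 CPM at 1 h and from 2094 to 2489 CPM at 6 h, and was higher at 6 h in 3 of 3 replicates (log2 fold change 0.14, SE 0.05, edgeR adjusted p = 0.0679 with the block). This value was close to the threshold and passed it with the block in some other settings, with an adjusted p of 0.0374 by edgeR once library trends in GC content and length had been removed. Dnajb1 ranged only from 48.3 to 49.2 CPM at 0 h and from 46.0 to 48.4 CPM at 6 h (log2 fold change -0.05, SE 0.06, edgeR adjusted p = 0.491 with the block). With the GC and length trends removed its value became -0.13 and passed the threshold (edgeR adjusted p = 0.0439 with the block). Hsf1 ranged from 33.8 to 41.5 CPM at 0 h and from 39.2 to 44.2 CPM at 6 h, higher in 3 of 3 replicates (log2 fold change 0.14, SE 0.06, edgeR adjusted p = 0.101 with the block), and passed the threshold without replicate 3 (0.16, edgeR adjusted p = 0.0364). Hspa8 shared 32.1% of its windows with other genes, whose highest count was 2882 over the 9 libraries, beside at least 139838 counts of Hspa8 in each library.

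**Figure D3:**
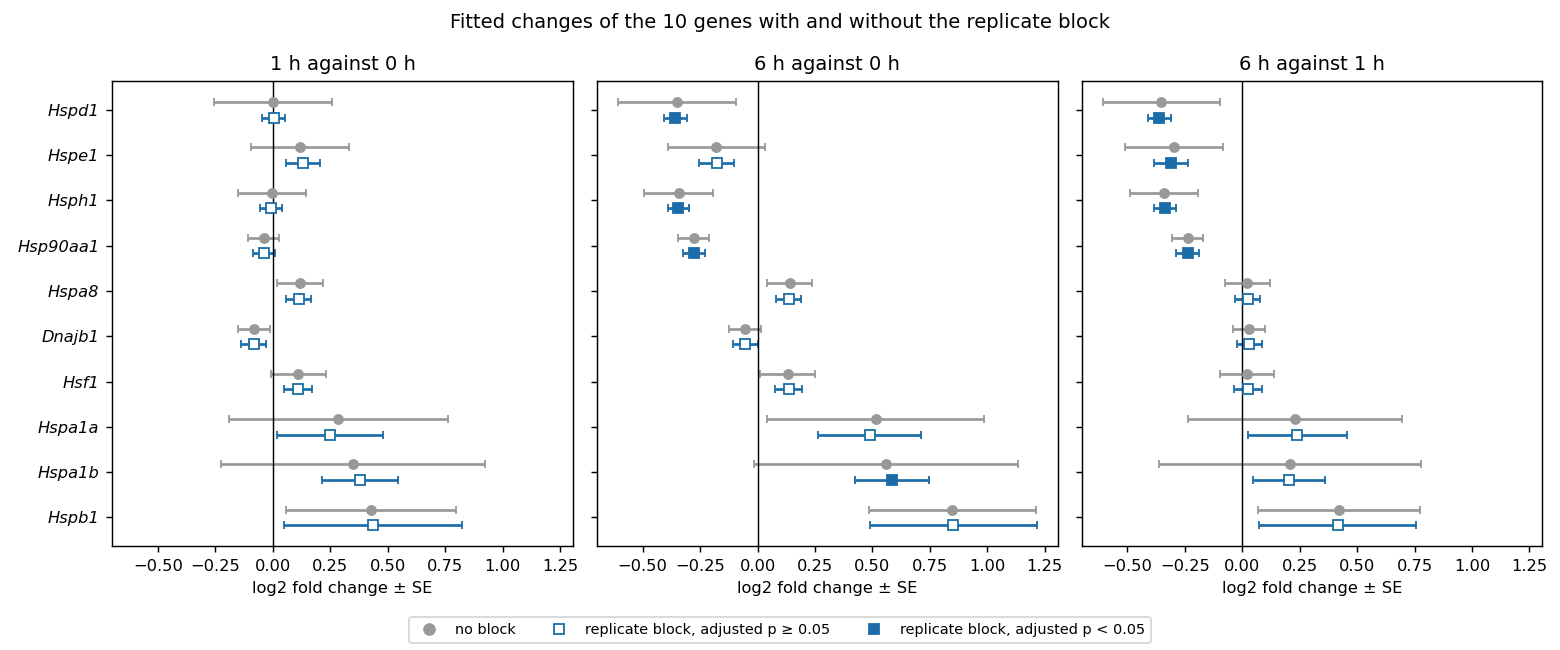
Fitted log2 fold change of each of the 10 genes with its SE in the 3 comparisons, as grey circles without the block and blue squares with the replicate block, filled where the adjusted p is under 0.05. No square is filled at 1 h against 0 h, and at 6 h Hspd1, Hsph1 and Hsp90aa1 lie at -0.36 to -0.24 in both comparisons.

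The comparison of 6 h with 1 h, which shares its libraries with the comparisons above, asked when the falls took place. Hspd1, Hsph1, Hspe1 and Hsp90aa1 were lower at 6 h than at 1 h in 3 of 3 replicates and were called with the block, by 22.1%, 20.9%, 19.4% and 15.2%. No member was called higher with the block, and without the block 0 members were called, 2 having an unadjusted p under 0.05, while DESeq2 without the block called Hsp90aa1 (adjusted p = 0.00284). Among all tested genes the block fit called 18% higher and 17.5% lower, and the fit without it 1.48% higher and 0.663% lower. The log2 fold changes with the block were -0.36 for Hspd1 (SE 0.05, edgeR adjusted p = 0.00012), -0.34 for Hsph1 (SE 0.05, adjusted p = 0.00014), -0.31 for Hspe1 (SE 0.07, adjusted p = 0.00584) and -0.24 for Hsp90aa1 (SE 0.05, adjusted p = 0.0022). Without the block, the adjusted p-values of edgeR were 0.544, 0.282, 0.536 and 0.116 in the same order. The call of Hspe1 was lost without replicate 2 (-0.30, edgeR adjusted p = 0.0545), and the others held whichever replicate number was removed. Hsp90aa1 was the member whose 1 h and 6 h libraries did not overlap, where 12.1% of all tested genes lay wholly higher and 10% wholly lower at 6 h. Against 0 h, the same 4 genes had log2 fold changes at 1 h of 0.0032, -0.0072, 0.13 and -0.04 with the block, none of them called.

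Other genes were ranked by how closely their levels followed those of a member over the 9 libraries. By the root mean square difference of centred log2 CPM, the non-members most like Hspd1 were Pigm (0.06), Imp4 (0.06) and Dennd1b (0.07), beside a median of 0.43 over all tested genes. Among the members the most like Hspd1 were Hspe1 (0.13) and Hsph1 (0.15). For Hspa1a the most like non-members were Selenom (0.12), Mxra8 (0.15) and H2-D1 (0.15), beside a median of 0.58, and the most like member was Hspa1b (0.26). These distances include each gene's differences between replicates as well as those between time points.

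Around the members, 93 other genes of protein folding and stress were listed in 8 groups, with earlier results of these data known. Of these genes, 92 were tested (Hspb7 had 11 counts in all). At 6 h against 0 h, 5 were higher and 3 lower without the block, and 20 of 92 were higher and 32 lower with it, where the block fit called 17.4% of all tested genes higher and 17.5% lower. At 1 h against 0 h, 0 were called without the block and 1 higher and 1 lower with it, and at 6 h against 1 h the counts were 1 higher and 4 lower without the block and 13 higher and 44 lower with it (18% and 17.5% of all tested genes). The share higher was thus near that of all tested genes at 6 h in both comparisons, whereas the share lower was larger than that of all tested genes in both. A share called also depends on the level and spread of the genes, and these were not matched between the lists and all tested genes. The groups are given below by their counts and medians with the block, beside a median of -0.0001 at 6 h against 0 h over all tested genes.

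HSP90 and its co-chaperones lay lower at 6 h, with 0 of 12 genes called higher and 7 lower against 0 h and a median log2 fold change of -0.17. Ppid, an HSP90-binding cyclophilin, averaged 118 ± 8.93 CPM before and 88.8 ± 9.93 CPM at the later time (SD, n = 3 each), or -0.41 on the log2 scale (edgeR adjusted p = 2.9e-05 with the block, 0.0836 without it). Ptges3, the co-chaperone p23, and Fkbp5, an HSP90-binding immunophilin, had log2 fold changes of -0.44 and -0.49 with the block (adjusted p = 3.9e-05 and 6.4e-05 by edgeR, and 0.204 and 0.149 without the block). Ahsa1, the activator of the HSP90 ATPase, was called at 6 h against 1 h also without the block (-0.41, edgeR adjusted p = 0.0347). Leaving out 1 library at a time kept it in 0 of 9 fits, with an adjusted p of up to 0.136. Chordc1, another HSP90 cofactor, was the 1 gene of the group called at 1 h, with 58.4, 60.2 and 61.9 CPM at 0 h and 52.6, 51.9 and 52.5 CPM at 1 h (log2 fold change -0.20, edgeR adjusted p = 0.0357 with the block, 0.874 without it), and this call was lost whichever replicate number was left out (adjusted p of 0.0821 to 0.279).

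The cytosolic chaperonin, which folds actin and tubulin, and the prefoldin that feeds it also lay lower: 0 of 14 genes were called higher and 8 lower at 6 h against 0 h (median -0.20), and 0 higher and 11 lower against 1 h (median -0.25). Cct3 fell by 0.30, Cct6a by 0.29 and Tcp1 by 0.24 on the log2 scale against 0 h (adjusted p = 0.00046, 0.00075 and 0.00127 by edgeR with the block, and 0.160, 0.149 and 0.148 without it), and none of the group was called without the block. Of the 10 mitochondrial chaperones and proteases, 0 were higher and 2 lower with the block at 6 h against 0 h (median 0.01). Hspa9, the mitochondrial HSP70, went from a mean of 667 to one of 570 CPM (log2 fold change -0.23, edgeR adjusted p = 0.002 with the block, 0.158 without it), a call lost without replicate 2 (adjusted p = 0.0603), and Grpel2, a nucleotide exchange factor of Hspa9, had -0.17 (edgeR adjusted p = 0.025 with the block, 0.263 without it, kept in 1 of 3 fits that left out a replicate number). Trap1, the mitochondrial HSP90, and Clpp, a matrix protease subunit, were called lower in the block fit against 1 h, at -0.15 and -0.20 (adjusted p = 0.0253 and 0.0329 by edgeR, and 0.601 and 0.350 without the block), and these calls were kept in 1 and 0 of 3 such fits.

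The HSP70 partners and J proteins of the cytosol split, with 7 of 19 called higher and 6 lower with the block at 6 h against 0 h (median -0.06). Without the block 3 were called. Hspa2, an HSP70 best known from the testis, had 9.84, 9.41 and 8.91 CPM at 0 h and 15, 14.0 and 13.3 CPM at 6 h, with no overlap (log2 fold change 0.59, edgeR adjusted p = 0.0357). Hspa4l rose by 0.30 (edgeR adjusted p = 0.0407), while its paralogue Hspa4, like Hsph1 an HSP110, fell by 0.32 on the log2 scale (edgeR adjusted p = 0.0446). Leaving out 1 library at a time kept each of these 3 calls in 1 of 9 fits, with adjusted p-values of up to 0.168, and in all 3 block fits that left out a replicate number.

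The small heat shock proteins held the largest fitted change among the listed genes that were tested. Hspb3 had 8, 18 and 7 counts at 0 h, 51, 58 and 47 at 1 h, and 114, 176 and 117 at 6 h, that is 0.111, 0.243 and 0.10 CPM, 0.797, 0.635 and 0.654 CPM, and 1.55, 1.94 and 1.09 CPM. Each time point lay wholly above the one before it. With so few counts at 0 h, Hspb3 would not have passed the filter on low counts without its later libraries, where it was high. Neither the size of its change nor its calls against 0 h are therefore independent of the filter. The log2 fold change at 6 h against 0 h was 3.31 (SE 0.38, edgeR adjusted p = 0.00767 without the block), kept in 8 of 9 fits with 1 library removed and at 0.0556 without 0 h replicate 1, and that at 1 h was 2.19 (SE 0.31, edgeR adjusted p = 0.00165 with the block, 0.242 without it). Hspb6 had 5.78, 4.80 and 4.91 CPM in the 0 h libraries, all below the 11.5, 8.74 and 9.11 CPM of the 6 h libraries, a log2 fold change of 0.92 (SE 0.15, edgeR adjusted p = 0.027 without the block), kept in 2 of 9 such fits. Of the 6 tested genes of this group 3 were higher and 1 lower with the block (median 0.51), and Cryab, αB-crystallin, was higher at 6 h than at 1 h (0.38, edgeR adjusted p = 0.00017 with the block, 0.451 without it).

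The chaperones of the endoplasmic reticulum, where secreted and membrane proteins fold, lay mostly higher at 6 h than at 0 h. With the block, 9 of 15 were called higher and 0 lower against 0 h (median 0.20), and 2 higher and 2 lower against 1 h. Hspa5, which encodes BiP, the HSP70 of this compartment, had 536, 633 and 587 CPM at 0 h, 616, 664 and 694 CPM at 1 h, and 795, 749 and 815 CPM at 6 h. No 6 h library overlapped those of 0 h or 1 h, and the log2 fold change against 0 h was 0.43 (SE 0.09, edgeR adjusted p = 0.0445 without the block), which held in 1 of 9 fits without 1 library and in all 3 block fits that left out a replicate number. Against 1 h, Pdia4, a protein disulfide isomerase, was higher by 0.25 and Dnajb9 fell by 0.31 on the log2 scale (both edgeR adjusted p = 0.0019 with the block, and 0.168 and 0.258 without it).

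The genes of oxidative and metal stress lay mostly lower, with 1 of 10 called higher and 7 lower at 6 h against 0 h with the block (median -0.29). Gclc, the catalytic subunit of the enzyme that limits glutathione synthesis, had 84.2, 88.9 and 88.4 CPM at 0 h, 82.5, 87.4 and 85.3 CPM at 1 h, and 50.5, 52.9 and 59.7 CPM at 6 h. No 6 h library overlapped an earlier one, and the log2 fold change against 0 h was -0.68 (SE 0.08, edgeR adjusted p = 0.00767 without the block), kept in all 9 fits with 1 library removed. Srxn1, sulfiredoxin, fell by 0.46 on the log2 scale (edgeR adjusted p = 0.0266 without the block, kept in 2 of 9 such fits), and Mt2, a metallothionein, fell by 0.62 against 1 h (edgeR adjusted p = 0.0325 without the block, kept in 0 of 9). Among the 6 heat shock factors and their regulators, 0 were called without the block. With it, Hsf2 fell by 0.19 on the log2 scale at 6 h against 0 h (edgeR adjusted p = 0.0133, and 0.410 without the block), and Hsf4, at no more than 0.401 CPM in any library, was higher at 6 h than at 1 h (edgeR adjusted p = 0.0456, and 0.421 without the block). Neither call was kept in all 3 block fits that left out a replicate number. Hsf4 had 10, 5 and 23 counts at 0 h, 5, 11 and 16 at 1 h, and 19, 19 and 43 at 6 h. It would not have passed the filter on low counts without its 6 h libraries, where it was highest on average. Its call is therefore not independent of the filter and is read as no result.

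**Figure D4:**
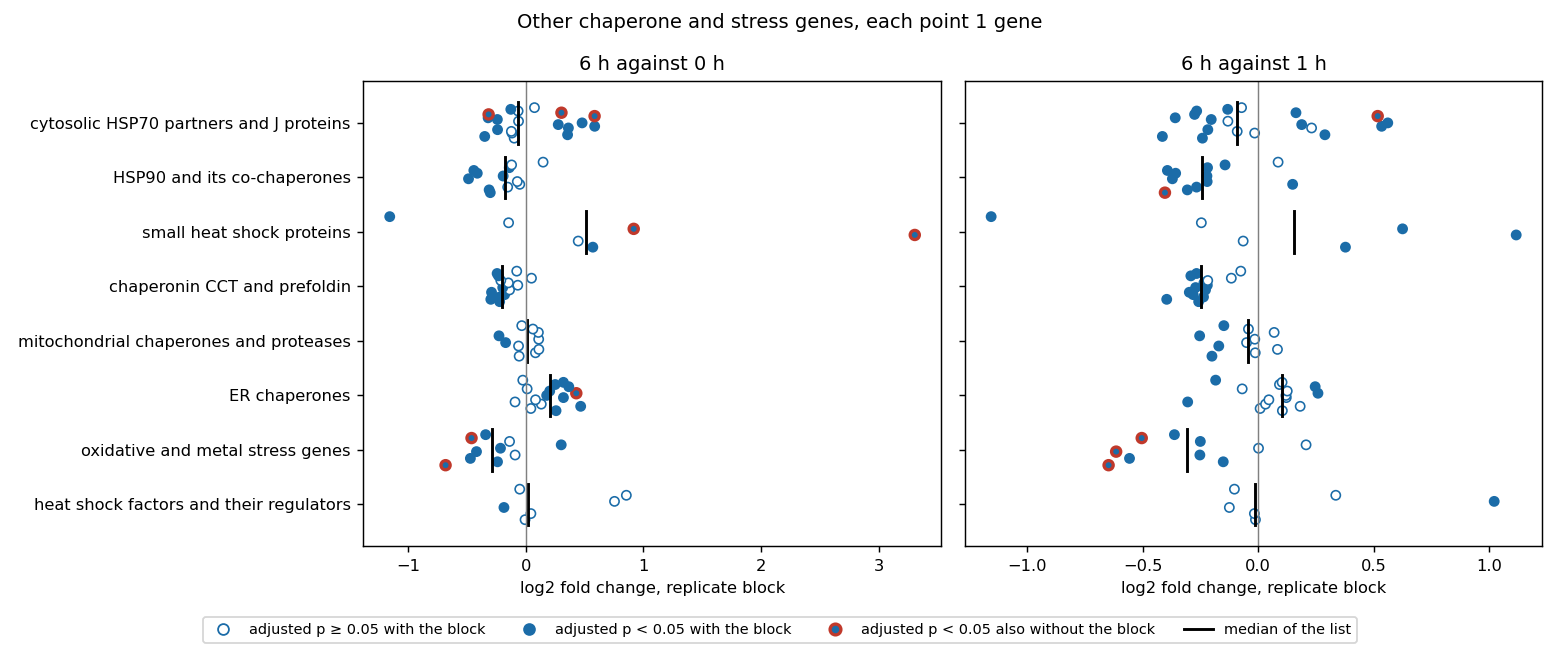
Log2 fold change with the replicate block of each of the 92 tested genes in 8 groups, at 6 h against 0 h (left) and against 1 h (right), filled where the adjusted p is under 0.05, ringed in red where it is also under 0.05 without the block, with black bars for the group medians. The chaperonin and HSP90 groups lie to the left of 0 with medians of -0.20 and -0.17 against 0 h, and the ER chaperones to the right with a median of 0.20.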

How the data were processed

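The authors extracted total RNA with the mirVana kit, sequenced stranded mRNA as paired-end reads, aligned them to mm10 (GRCm38) with STAR 2.5.3a and deposited raw counts of reads per Ensembl gene, without normalisation. Per the labels and the submitters' processing notes, FastQC and DESeq2 1.22.1 were also used. The strand setting, the handling of reads with several alignments and the annotation release used for counting are not given in the sources used here (a GENCODE release is named for intron coordinates only). Each of the 9 columns matched 1 library by its title, and the smallest chi-square per degree of freedom between libraries was 13.5. Symbols came from GENCODE M21, which held 48144 of 48526 identifiers.

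Counts were fitted in R 4.3.3 with edgeR 4.0.16 (filterByExpr with a minimum count of 10 and a minimum total of 15, TMM, glmQLFit and glmQLFTest over the 9 libraries, Benjamini-Hochberg adjustment, threshold 0.05), with limma 3.58.1 loaded and DESeq2 1.42.0 as an alternative. Fits were tested on simulated data. Tables and figures used Python 3.11.15, pandas 2.3.3, numpy 2.4.6 and matplotlib 3.10.9. Levels per kb divide CPM by the length of all exons. Replicates 1, 2 and 3 stand for the letters B, C and D of the labels, which do not say what libraries with the same letter share. After subtraction of the group means, correlations were 0.733 to 0.800 in 9 pairs with the same number, so same-numbered libraries were taken as pairs. Those of the 18 others were -0.462 to -0.314. The subtraction forces them below 0 on average once same-numbered pairs correlate, so they add no support of their own. The likeness of genes used log2 CPM with a prior count of 2. Windows of 100 bases were compared between the longest transcript of each member and all other transcripts.

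The members and lists were chosen with earlier results of these data known. All members are named, and of each list up to 3 genes per comparison with the smallest adjusted p among those called without the block or, where there are none, with it. The alternatives were the block, DESeq2, RLE factors, no scaling factor, other filters, the 6 libraries compared, a threshold of 0.01, trends in GC content and length removed (99.6% of tested genes, splines with 4 degrees of freedom) and leaving out libraries. Trends removed without the block, and scaling, filters, libraries and threshold with it, were chosen after seeing the data.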

Additional observations from a re-analysis of the deposited data

How the results depend on the processing

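The clearest dependence was on the replicate block. With it, edgeR called 1 member higher and 3 lower at 6 h against 0 h and 4 lower at 6 h against 1 h, against 0 without it, and DESeq2 with the block gave the same counts of 1, 3 and 4. DESeq2 without the block called 1 member lower in each of these comparisons. Hspa1a and Hspa1b as 1 row had 0.56 with the block at 6 h against 0 h (adjusted p = 0.0065), past the threshold only there, and with the block the other chaperone and stress genes went to 1 higher and 1 lower at 1 h, 20 and 32 at 6 h against 0 h, and 13 and 44 at 6 h against 1 h. Within the block fits, the count of members higher at 6 h against 0 h was 2 with GC and length trends removed, without a scaling factor, without a filter and with a mean of 1 CPM, 3 with only the 6 libraries compared, 0 at a threshold of 0.01, and from 0 to 3 when a replicate number was left out. The counts of members lower with the block were 3 or 4 under every alternative run at 6 h, in both comparisons. The causes of these shifts were not tested.

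Members whose values were near 0 changed sign without any call. At 1 h against 0 h without the block, Hsph1 became 0.0017 with DESeq2 and with RLE factors, 0.0016 with only the 6 libraries compared and 0.0302 with GC and length trends removed, and Hspd1 became -0.0148 without a scaling factor and -0.0185 with those trends removed. With the block, the removal of these trends gave Hsph1 0.025 and Hspd1 -0.0165, and no scaling factor gave Hspd1 -0.0117. At 6 h against 1 h, the same removal gave Dnajb1 -0.0313 and Hsf1 -0.0484 without the block, and -0.0306 and -0.0455 with it.

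Leaving out 1 library without the block, the values at 1 h against 0 h ranged from -0.22 to 0.56 for Hspa1a, -0.22 to 0.96 for Hspa1b, -0.0933 to 0.10 for Hsph1, -0.0649 to 0.0076 for Hsp90aa1 and -0.19 to 0.22 for Hspd1. At 6 h against 0 h, Hspe1 ranged from -0.36 to 0.0395, Hspa1a from 0.0694 to 0.76, Hspa1b from 0.0546 to 1.17 and Hspd1 from -0.58 to -0.13. At 6 h against 1 h the ranges were -0.21 to 0.74 for Hspa1a, -0.29 to 0.79 for Hspa1b, -0.0381 to 0.11 for Hspa8, -0.0015 to 0.0875 for Dnajb1 and -0.0652 to 0.12 for Hsf1. Leaving out a replicate number with the block, they were -0.0351 to 0.0195 for Hsph1, -0.0204 to 0.0265 for Hspd1 and -0.0084 to 0.24 for Hspe1 at 1 h, and -0.0068 to 0.0443 for Hspa8, -0.0109 to 0.0927 for Dnajb1 and -0.0111 to 0.11 for Hsf1 at 6 h against 1 h. Without the block, leaving out any library gave 0 calls among the members. Depth limits Hspb1, Hspa1a and Hspa1b, which had 8 to 325 counts per library, and shared sequence limits the members with pseudogenes.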
